A study of Mus musculus with 12 samples.

Results

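Foxq1, Foxf2 and Foxc1 are 3 neighbouring forkhead genes on mouse chromosome 13. Their contact with the nuclear lamina was followed in preimplantation embryos given siRNA against the chromatin protein Rif1 (siRif1) or control siRNA (siControl). These forkhead genes are 3 of 20140 protein-coding genes whose midpoint lay in the analysed part of the 19 autosomes. Their choice rested on the 2 lists of lamina-associated domains (LADs) of 8-cell embryos. They lie together in a 2.5-Mb stretch (chromosome 13, 31000001 to 33500000, mm10) selected on these measured calls. The stretch was selected because it was LAD in siControl 8-cell and not in siRif1 8-cell embryos. It was also among the longer stretches with that difference. That contrast at the 8-cell stage is therefore a description of how the genes were picked, and it carries no test.

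Chromatin at the lamina was marked by DamID, in which the bacterial methyltransferase Dam, fused to lamin B1, methylates adenine in GATC sites of DNA close to the lamina. The 12 samples formed 4 groups of 3 replicates: siRif1 8-cell, siControl 8-cell, siRif1 4-cell and siControl 4-cell embryos. All embryos were of the cross (C57BL/6J xCBA) x DBA/2J and received 20 µM siRNA as zygotes, 17 to 18 h after hCG. At the 2-cell stage all of them, controls included, were injected with Tir1, a plant auxin receptor, at 250 ng/µL, with membrane-eGFP at 100 ng/µL and with the Dam fusion, which auxin degrades, at 20 ng/µL. They were kept in 500 µM auxin. Auxin was withdrawn at 66 h for 8-cell embryos, collected at 72 to 74 h, and at 54 h for 4-cell embryos, collected at 60 to 62 h. A replicate pooled 16 to 24 blastomeres, which is 2 to 3 embryos of 8 cells or 4 to 6 of 4 cells. For each group the authors deposited a single LAD list made from all replicates, on a 100-kb grid. The lists carry no replicate values and no depth, so every difference below is between 2 pooled lists, with no error and no p-value. A LAD call does not give the share of blastomeres in which a locus met the lamina. The lists hold no RNA, so neither the knockdown nor the level of any gene was checked.

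Forkhead factors bind DNA through a winged-helix domain and regulate development. Foxc1 is required for the anterior eye, the skull, the heart and the vessels, Foxf2 acts in mesenchyme of the palate and gut and in pericytes of brain vessels, and Foxq1 acts in the hair shaft and in mucus cells of the stomach. LADs are generally poor in genes and low in transcription, and many developmental regulators lie at the lamina in cells that do not use them. Rif1 controls the timing of DNA replication and binds protein phosphatase 1.

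Foxq1 (gene 15220) occupies 31558170 to 31560976, Foxf2 (gene 14238) 31625816 to 31631406 and Foxc1 (gene 17300) 31806646 to 31810635, all on chromosome 13 of GRCm38. The gap between Foxq1 and Foxf2 is 64.8 kb and that between Foxf2 and Foxc1 is 175 kb, so the cluster spans 252 kb. It begins 558 kb inside the stretch and ends 1.69 Mb before its far end. The RefSeq promoter table (GRCm38.p6, 250 bases before to 50 bases after the transcription start) held Foxf2 and Foxc1. Their promoters are shown beside those of Wrnip1 and Serpinb9g, a CpG-rich and a CpG-poor gene of the same stretch, with each CG dinucleotide in capitals. All 4 are on the plus strand, at chr13:31625566-31625865, chr13:31806396-31806695, chr13:32801780-32802079 and chr13:33484540-33484839 in that order.
Foxf2: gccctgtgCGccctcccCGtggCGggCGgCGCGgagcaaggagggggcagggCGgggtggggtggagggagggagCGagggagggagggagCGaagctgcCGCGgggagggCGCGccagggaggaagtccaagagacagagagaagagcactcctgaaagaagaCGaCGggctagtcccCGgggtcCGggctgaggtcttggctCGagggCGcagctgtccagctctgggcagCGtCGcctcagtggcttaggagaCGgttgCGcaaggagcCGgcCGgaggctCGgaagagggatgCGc
Foxc1: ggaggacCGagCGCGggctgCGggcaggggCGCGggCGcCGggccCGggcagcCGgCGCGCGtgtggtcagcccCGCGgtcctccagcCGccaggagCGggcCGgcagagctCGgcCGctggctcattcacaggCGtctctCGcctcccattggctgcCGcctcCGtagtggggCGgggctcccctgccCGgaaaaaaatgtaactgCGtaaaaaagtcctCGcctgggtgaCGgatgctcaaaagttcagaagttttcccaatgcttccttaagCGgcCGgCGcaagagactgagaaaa
Wrnip1: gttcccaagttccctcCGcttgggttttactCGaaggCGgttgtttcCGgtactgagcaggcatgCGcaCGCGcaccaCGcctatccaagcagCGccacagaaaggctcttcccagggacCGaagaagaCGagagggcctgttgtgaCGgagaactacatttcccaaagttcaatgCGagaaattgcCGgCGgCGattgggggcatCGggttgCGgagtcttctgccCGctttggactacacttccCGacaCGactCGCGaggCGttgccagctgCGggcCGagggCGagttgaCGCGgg
Serpinb9g: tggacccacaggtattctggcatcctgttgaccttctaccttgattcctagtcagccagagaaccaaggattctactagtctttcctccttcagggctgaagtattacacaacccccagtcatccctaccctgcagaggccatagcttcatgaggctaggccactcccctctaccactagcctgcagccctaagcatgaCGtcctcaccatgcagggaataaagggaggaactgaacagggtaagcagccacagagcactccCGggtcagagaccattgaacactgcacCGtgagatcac

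The Foxf2 promoter holds 27 CG dinucleotides and the Foxc1 promoter 32. The median over the 16122 protein-coding genes with a promoter in the table is 14, and 21.1% of them reach the Foxf2 count. CG occurs at least once in 95% of these promoters. GATC, the letters that Dam methylates, occurs in neither the Foxf2 nor the Foxc1 promoter, and in 46.3% of all promoters. Both motifs read the same on either strand, and they can overlap only where a GATC is followed by G or where a CG precedes ATC. LADs were called in 100-kb bins, so the state of a bin rests on sites outside these windows too.

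The 3 forkhead genes shared a single state in each list. In siRif1 8-cell embryos 0 of the 3 lay in a LAD, against 3 of 3 in siControl 8-cell embryos. This is the contrast that chose them. Of all protein-coding genes, 9.37% were LAD in siControl and not in siRif1 embryos at this stage. At the 4-cell stage, which the choice did not use, the order was the opposite. There 3 of 3 lay in a LAD in siRif1 embryos and 0 of 3 in siControl embryos, beside 7.37% of protein-coding genes that were LAD in siRif1 4-cell embryos alone. In siControl embryos the cluster was thus in a LAD at the 8-cell and not at the 4-cell stage (11.2% of protein-coding genes, with 9.59% in the reverse direction). In siRif1 embryos it was in a LAD at the 4-cell and not at the 8-cell stage (8.58%, with 8.83% in the reverse direction). Both 8-cell states of the cluster were fixed by the choice, so these stage differences could not have gone the other way. The 4 contrasts share lists in pairs and are not independent of each other.

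Foxq1, the member nearest to the start of the stretch, was 559.6 kb inside the nearest LAD border in siControl 8-cell and in siRif1 4-cell embryos. In siRif1 8-cell embryos its midpoint was 759.6 kb from the nearest LAD, and in siControl 4-cell embryos 340.4 kb. Foxq1 was thus more than 3 bins away from a border in every list, on whichever side it lay.

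Foxf2 was 629 kb inside a LAD in siControl 8-cell and siRif1 4-cell embryos. It was 829 kb outside in siRif1 8-cell and 271 kb outside in siControl 4-cell embryos.

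Foxc1 was 809 kb inside a LAD in siControl 8-cell and siRif1 4-cell embryos, and 1009 kb outside in siRif1 8-cell embryos. In siControl 4-cell embryos it was 91.4 kb from a LAD that began at 31900001, within the neighbouring gene Gmds. Foxc1 was the member closest to a border in that list, less than a 100-kb bin away, and extending every LAD by 100 kb would place it inside. Foxq1 and Foxf2 stayed outside under that change.

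**Figure D1:**
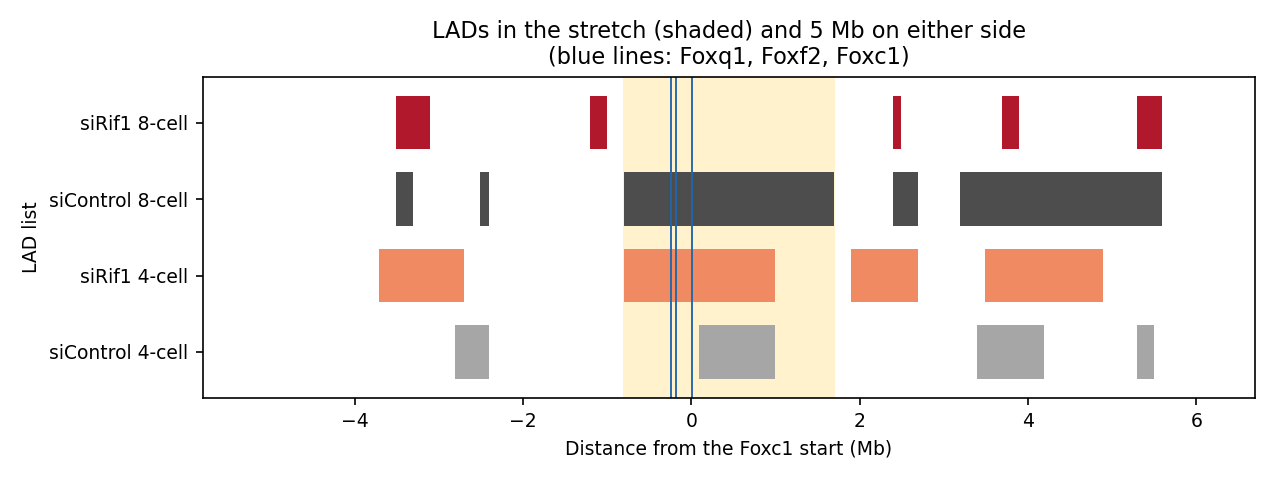
LADs of the 4 lists (rows) across the 2.5-Mb stretch, shaded, and 5 Mb on either side, with the distance from the Foxc1 start in Mb on the x axis and the midpoints of the 3 forkhead genes as blue lines. The lines cross a LAD in siControl 8-cell and siRif1 4-cell embryos only, and the stretch is empty in siRif1 8-cell embryos.

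The stretch as a whole showed the same order of the lists. Of its 25 bins, 0 were LAD in siRif1 8-cell embryos and 25 in siControl 8-cell embryos, by the choice of the stretch. At the 4-cell stage 18 bins (72%) were LAD in siRif1 embryos and 9 (36%) in siControl embryos, a difference of 36 percentage points. In control embryos coverage was 100% at the 8-cell and 36% at the 4-cell stage. In siRif1 embryos it was 0% at the 8-cell and 72% at the 4-cell stage. The choice fixed both 8-cell values, so these stage differences could not have gone the other way.

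Over all autosomes the lists differed less. Coverage was 42.9% in siRif1 and 44.7% in siControl 8-cell embryos, and 43.5% in siRif1 and 32.9% in siControl 4-cell embryos. On chromosome 13 it was 43.1% in siRif1 and 46.3% in siControl 8-cell embryos, and 36.5% in siRif1 and 20.4% in siControl 4-cell embryos. The 4-cell difference in the stretch thus lay on a chromosome whose coverage was 16.2 points higher in siRif1 4-cell embryos, and what part this had in it was not tested.

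**Figure D2:**
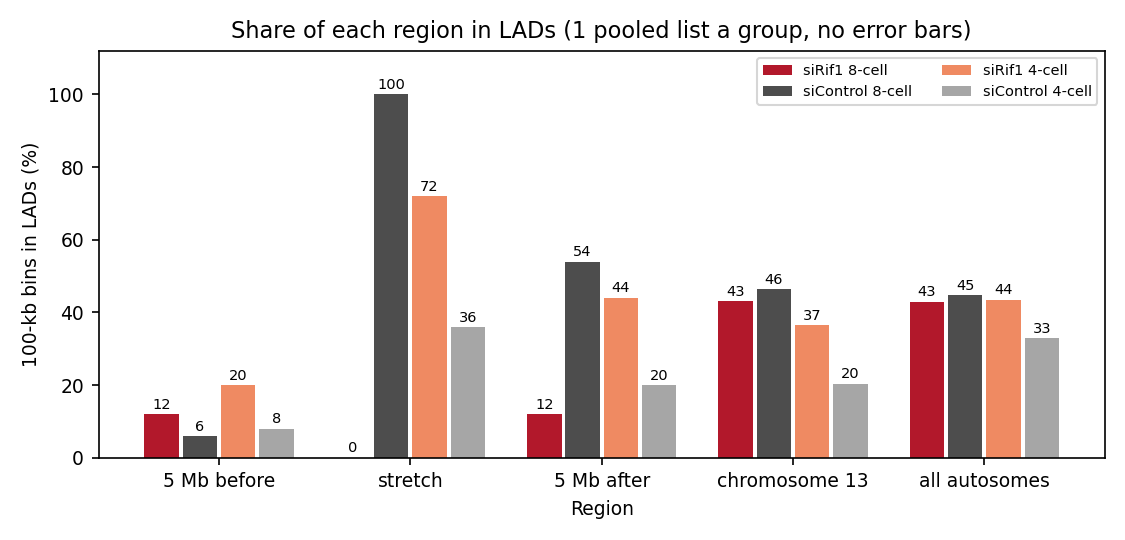
Percent of 100-kb bins in LADs (y axis) in 5 regions (x axis), with a bar for each pooled list and no error bars. In the stretch the bars stand at 0 in siRif1 8-cell, 100 in siControl 8-cell, 72 in siRif1 4-cell and 36 in siControl 4-cell embryos, while over all autosomes they lie between 32.9 and 44.7.

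The LAD borders cut the stretch into 3 segments that differ in gene content. The first, 31000001 to 31900000 (0.9 Mb), was LAD in siControl 8-cell and siRif1 4-cell embryos and in neither of the others. Foxq1, Foxf2 and Foxc1 are its only protein-coding genes, beside 5 long non-coding RNAs, 2 pseudogenes and 3 small RNAs. It holds 3.33 protein-coding genes per Mb.

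The second segment, 31900001 to 32800000, was LAD in every list except siRif1 8-cell. Its 2 protein-coding genes are Gmds, which encodes GDP-mannose 4,6-dehydratase of the fucose pathway, and Mylk4, a myosin light chain kinase gene. Gmds starts 8.95 kb after Foxc1 ends and runs from 31819583 to 32338762 on the minus strand, so its 3′ end faces Foxc1. Of its length, 84.5% lay in the siControl 4-cell LAD, which left out the part next to Foxc1.

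The third segment, 32800001 to 33500000, was LAD in siControl 8-cell embryos alone. It is dense, with 18.6 protein-coding genes per Mb, and holds Wrnip1, which encodes an ATPase that interacts with the Werner helicase, and 12 Serpinb genes. Serpinb genes encode intracellular serine protease inhibitors, such as Serpinb9, an inhibitor of granzyme B. The 12, from Serpinb1a to Serpinb9g, are paralogs of related sequence, so some reads may match several of them, and the lists do not show how such reads were treated. Beyond the stretch the same cluster goes on with Serpinb6d, LAD in no list, and Serpinb6e, Serpinb6c and Serpinb6a, LAD in siRif1 4-cell embryos alone.

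In all, 18 protein-coding genes had their midpoint in the stretch. None was LAD in siRif1 8-cell embryos, all 18 in siControl 8-cell, 5 in siRif1 4-cell and 2 in siControl 4-cell embryos. Of all 44 annotated entries of the stretch, 20 were LAD in siRif1 4-cell and 7 in siControl 4-cell embryos. Over all protein-coding genes the share in LADs was 24.2% in siRif1 8-cell, 26.3% in siControl 8-cell, 24% in siRif1 4-cell and 24.7% in siControl 4-cell embryos.

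**Figure D3:**
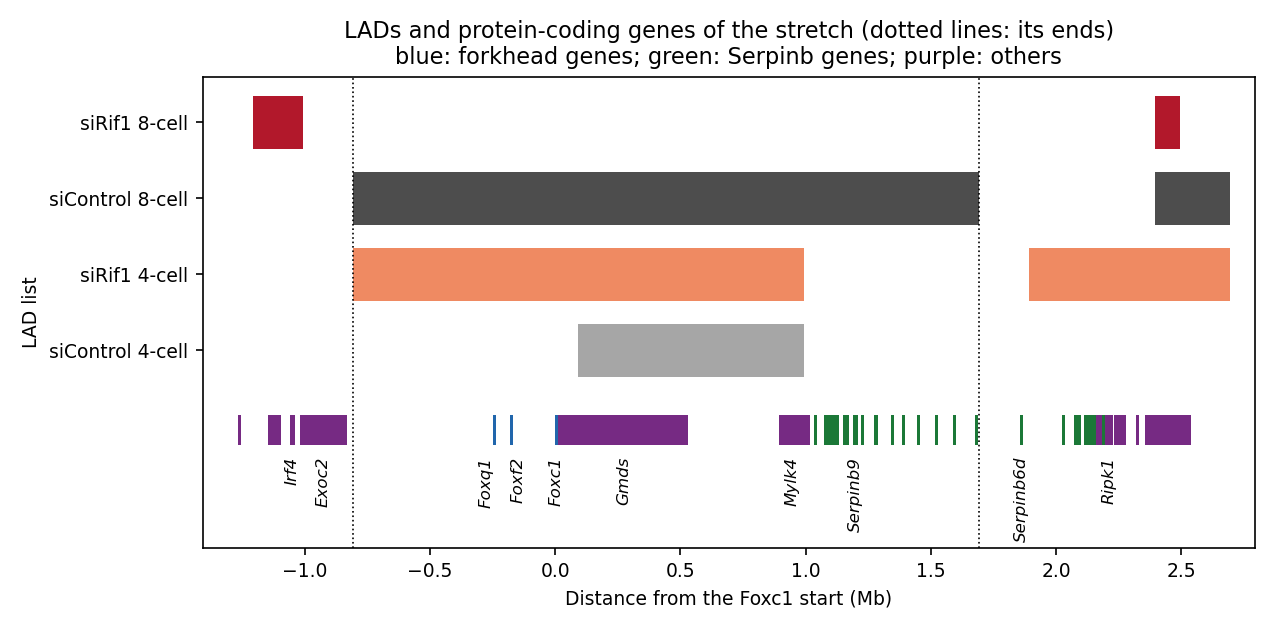
LADs of the 4 lists (rows) and protein-coding genes (bottom row) along the stretch, with the distance from the Foxc1 start in Mb on the x axis and dotted lines at the ends of the stretch. The forkhead genes lie in the left segment, which is LAD in siControl 8-cell and siRif1 4-cell embryos, and the Serpinb genes lie right of the point where both 4-cell LADs end.

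Promoters differed between these groups of genes. Of the 12 Serpinb genes of the stretch, 11 had a promoter in the table, with 0 to 5 CG dinucleotides (median 3), and 7 of the 11 held GATC. The other 5 promoters of the stretch, those of Foxf2, Foxc1, Gmds, Mylk4 and Wrnip1, held 5 to 45 (median 29) and none held GATC. The Serpinb9g promoter above has 3 CG dinucleotides and 1 GATC, and the Wrnip1 promoter 29 and none. The choice of the stretch fixed the 8-cell state of all these genes, so that state says nothing about their promoters.

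A border was shared between lists at the start of the forkhead segment. The siRif1 4-cell LAD and the siControl 8-cell LAD began at the same bin, 31000001, between Hus1b and Foxq1. Of the 644 siRif1 4-cell LADs, 101 (15.7%) had a start in common with a siControl 8-cell LAD. The forkhead segment ends at 31900000, where only the siControl 4-cell list had a border. The siRif1 4-cell LAD of 1.8 Mb ran on through the next segment and ended at 32800000, as did the siControl 4-cell LAD of 0.9 Mb, and 99 of the siRif1 ends (15.4%) were shared in this way. This border lies between the midpoints of Mylk4 and Wrnip1. At the 4-cell stage the siRif1 LAD thus differed from the siControl LAD by 0.9 Mb at its start, and this added part is the segment with the 3 forkhead genes.

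The genes just outside the stretch were not LAD in siControl 8-cell embryos. The stretch has the ends of a siControl 8-cell LAD, so for the bins next to it the choice fixed this. Before it, the exocyst gene Exoc2 (118 kb outside by its midpoint) and Hus1b (52.8 kb), related to a DNA damage checkpoint gene, were LAD in no list. Farther out, the phosphatase gene Dusp22 and Irf4, a regulator of lymphocytes, were LAD in siRif1 8-cell embryos alone, in a LAD of 0.2 Mb (30600001 to 30800000). On the other side Serpinb6d (166 kb outside) was LAD in no list.

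In siRif1 8-cell embryos the gap between LADs that held the forkhead genes ran from 30800001 to 34200000 (3.4 Mb). The choice of the stretch fixed at least 2.5 Mb of this length. In siControl 4-cell embryos the gap was 2.5 Mb (29400001 to 31900000), longer than 62.9% of 582.

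The 5 Mb after the stretch followed its order of lists. There 12% of bins were LAD in siRif1 and 54% in siControl 8-cell embryos, and 44% in siRif1 and 20% in siControl 4-cell embryos. A LAD of 2.4 Mb in siControl 8-cell embryos (35000001 to 37400000) made up most of its 2.7 Mb in this flank, and siRif1 8-cell embryos had 0.6 Mb in LADs in the whole 5 Mb. Genes LAD in siControl 8-cell and siRif1 4-cell embryos alone in this flank were Lyrm4 and Fars2, which act in mitochondrial iron-sulfur cluster assembly and phenylalanine tRNA charging. The 9 protein-coding genes at 33700001 to 34200000, from Serpinb6e to Psmg4, among them the cell death kinase gene Ripk1 and the tubulin genes Tubb2a and Tubb2b, were LAD in siRif1 4-cell embryos alone. Slc22a23 was LAD in all lists except siControl 4-cell. Of the other genes next to LAD borders in this flank, Eci2, Nrn1 and F13a1 were LAD in siControl 8-cell embryos alone, and Cdyl and Ppp1r3g in all lists except siRif1 8-cell. Ly86 was LAD in both 8-cell lists, and Pxdc1, Eci3 and Rreb1 in no list.

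The 5 Mb before the stretch held few LADs in any list. Coverage was 12% in siRif1 and 6% in siControl 8-cell embryos, and 20% in siRif1 and 8% in siControl 4-cell embryos. Its 34 protein-coding genes are mostly prolactin family genes of the placenta, and 30 of them were LAD in no list. The 4 others were Prl5a1 and Sox4, LAD in siRif1 4-cell embryos alone, and Dusp22 and Irf4. The border genes Prl4a1, Cdkal1 and Uqcrfs1 were LAD in no list. The siRif1 minus siControl difference at the 4-cell stage was 12 points over these 5 Mb, but it turned to -15 points over the 2 Mb next to the stretch, so its direction depended on the flank length. After the stretch it was 24 points over 5 Mb and 14 points over 10 Mb.

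The siControl 8-cell LAD that holds the forkhead genes has the same ends as the stretch, so it had no base in siRif1 8-cell LADs. It was longer than 83.9% of the 746 LADs of its list. In all, 148 of these LADs (19.8%) had no base in siRif1 8-cell LADs. Among these 148 it was the longest, at 2.5 Mb. The next were 1.9 Mb long, and the median of the other 147 was 0.4 Mb. Counting parts of LADs too, 672 stretches were LAD in siControl and not in siRif1 8-cell embryos. Of these, 3 were at least 2.5 Mb long, and the longest was 3.9 Mb. The stretch was chosen by this contrast and from among the longer stretches, so these ranks are a description.

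In the 4-cell lists, 72% of the LAD with the forkhead genes was also LAD in siRif1 and 36% in siControl embryos. Over all bases of the 148 LADs these shares were 50.3% and 34.2%. Of the 148, 43 had a larger share in siRif1 than in siControl 4-cell LADs. Many of the others had the same share in both lists, often 0% or 100%, so they did not go the other way. Some did, with a larger share in siControl than in siRif1 4-cell LADs. Among these were chromosome 17, 50400001 to 51700000 (84.6% in siControl and 30.8% in siRif1), and chromosome 2, 74100001 to 75500000 (64.3% and 42.9%). In all, 67 had at least 50% of their length in siRif1 4-cell LADs.

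**Figure D4:**
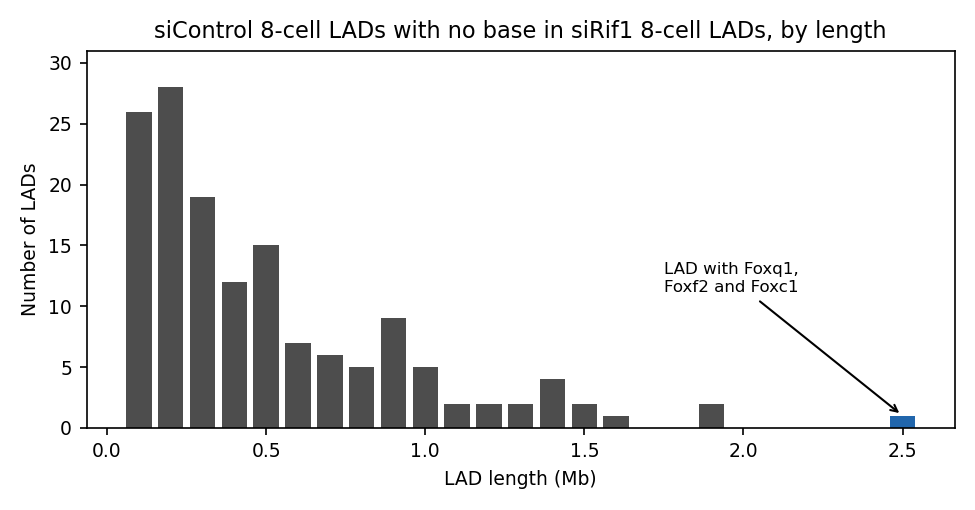
Number of siControl 8-cell LADs with no base in siRif1 8-cell LADs (y axis) by length in Mb (x axis), 148 in all. The LAD with Foxq1, Foxf2 and Foxc1, in blue, stands at 2.5 Mb and no other is longer than 1.9 Mb.

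The pattern of the forkhead genes over the 4 lists, LAD in siControl 8-cell and siRif1 4-cell embryos alone, was found for 265 protein-coding genes (1.32%). Among the 1888 genes that were LAD in siControl and not in siRif1 8-cell embryos, these 265 were 14%. Bins with the pattern formed 239 stretches with a median of 0.2 Mb. The 0.9-Mb segment with the forkhead genes ranked 9 by length, and 12 stretches were at least as long. The longest, of 1.3 Mb, lay on chromosome 10 (27500001 to 28800000, Ptprk and Themis) and on chromosome 9 (111900001 to 113200000, Arpp21). Stretches of 1.2 Mb lay on chromosome 13 (16400001 to 17600000, Sugct) and chromosome 16 (6400001 to 7600000, Rbfox1). The 3 of 1.1 Mb lay on chromosome 10 (11500001 to 12600000, no protein-coding gene), chromosome 18 (51400001 to 52500000, Ftmt and Srfbp1) and chromosome 4 (9600001 to 10700000, Gdf6, a growth factor gene of the BMP family).

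Across the forkhead family, most genes kept a single state. Of 41 autosomal members, 23 (56.1%) were LAD in no list, 7 (17.1%) in all lists and 11 (26.8%) in some lists. Over all protein-coding genes these shares were 57.4%, 9.66% and 32.9%. The 7 in LADs throughout were Foxa1 and Foxa2, pioneer factors of endoderm, Foxb1, Foxd2, Foxd3, a regulator of pluripotent cells and neural crest, Foxe3 of the lens and Foxp1.

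The cluster of Foxf1, Foxc2 and Foxl1 on chromosome 8 holds the closest paralogs of Foxf2 and Foxc1. All 3 of its genes were LAD in no list. Foxf1, of lung and gut mesenchyme, starts at 121084386, Foxc2, of lymphatic vessels, at 121116171 and Foxl1, of gut mesenchyme, at 121127685. The chromosome 8 genes thus differed from the chromosome 13 genes in siControl 8-cell and siRif1 4-cell embryos and had the same state in the remaining lists.

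Outside the cluster, 8 of 38 forkhead genes differed between lists (21.1%, beside 32.9% of all protein-coding genes). Foxi1, a gene of the inner ear and kidney on chromosome 11, had the pattern of the cluster, LAD in siControl 8-cell and siRif1 4-cell embryos alone. Foxi2 was LAD in all lists except siRif1 8-cell. In contrast, Foxj2 was LAD in siRif1 8-cell embryos alone. Foxb2 was LAD in both 8-cell lists, Foxd4 in siRif1 4-cell embryos alone, Foxn2 in siControl 4-cell embryos alone, and Foxn3 in all lists except siControl 8-cell.

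In the counts that follow, alone means in 1 of the 2 lists of a stage, whatever the state at the other stage. Of the whole family, 3 forkhead genes were LAD in siRif1 and 5 in siControl 8-cell embryos alone. At the 4-cell stage, 5 were LAD in siRif1 and 1 in siControl embryos alone. The cluster supplies 3 of the 5 in each case and counts as a single locus. Without it, of 38 genes, 3 (7.89%) were LAD in siRif1 and 2 (5.26%) in siControl 8-cell embryos alone, and 2 (5.26%) in siRif1 and 1 (2.63%) in siControl 4-cell embryos alone. Over all protein-coding genes, 7.33% were LAD in siRif1 and 9.37% in siControl 8-cell embryos alone, and 7.37% in siRif1 and 8.08% in siControl 4-cell embryos alone.

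**Figure D5:**
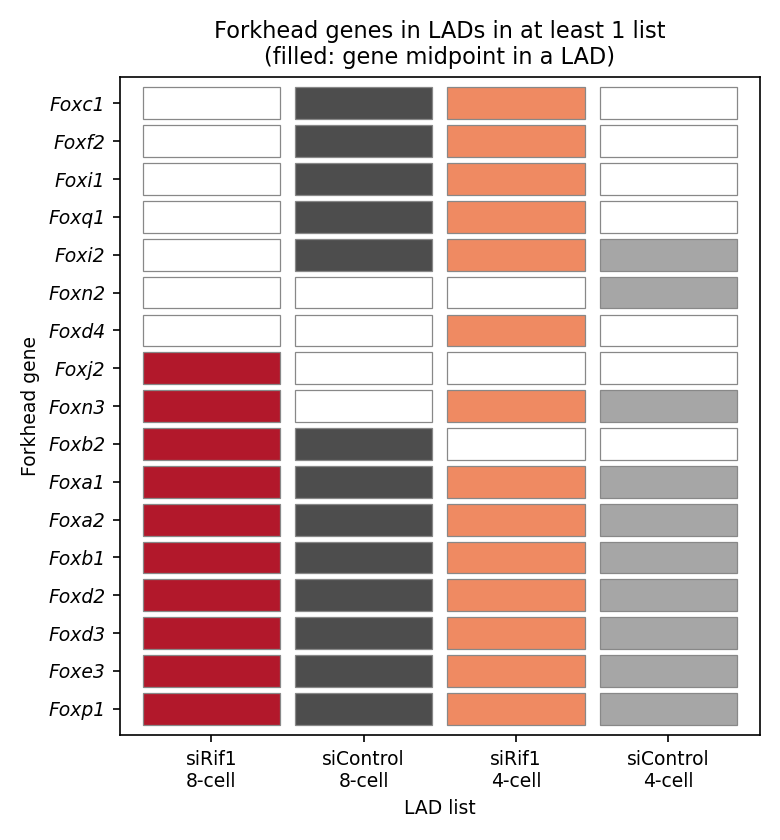
State of 17 forkhead genes that were LAD in at least 1 list (rows) in the 4 pooled lists (columns), with a filled box where the gene midpoint lay in a LAD. Foxc1, Foxf2, Foxq1 and Foxi1 are filled in siControl 8-cell and siRif1 4-cell embryos alone, and 7 genes are filled in every column.

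Genes known to act with or under these forkhead factors were followed in a list of 30, covering hedgehog and Notch signalling, neural crest, vessels, hair and stomach. The list also holds the paralogs Foxf1, Foxc2 and Foxl1, LAD in no list and already counted in the forkhead family. In it 15 genes (50%) were LAD in no list, beside 57.4% of all protein-coding genes. Among the 15 were Notch1, its ligand gene Dll4, the hedgehog genes Gli1, Gli2 and Smo, Tbx1 and the stomach mucin gene Muc5ac. The 5 LAD in all lists (16.7%, beside 9.66% of all protein-coding genes) were Gli3, Hey2, Sox9, Tgfb2 and Wnt5a.

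The other 10 (33.3%) differed between lists, close to the 32.9% of all protein-coding genes that did so. Bmp4, a signalling gene of mesoderm, had the pattern of the forkhead cluster. Kdr, a VEGF receptor gene, and Twist1, of mesenchyme, were LAD in siControl 8-cell embryos alone, and Hoxc13, of the hair shaft, in siRif1 8-cell embryos alone. Pdgfra was LAD in siRif1 4-cell and Shh in siControl 4-cell embryos alone. The hedgehog receptor gene Ptch1 was LAD in both 8-cell lists, and the chemokine receptor gene Cxcr4 in both 4-cell lists. Cxcl12, the ligand gene of Cxcr4, was LAD in all lists except siControl 8-cell.

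In these counts too, alone means in 1 of the 2 lists of a stage, whatever the state at the other stage. Of the list, 2 genes (6.67%) were LAD in siRif1 and 3 (10%) in siControl 8-cell embryos alone. At the 4-cell stage 2 (6.67%) were LAD in siRif1 and 1 (3.33%) in siControl embryos alone. Each share rests on 1 to 3 genes, beside 7.33% to 9.37% of all protein-coding genes in these 4 classes.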

How the data were processed

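The submitters' processing notes name Trimmomatic, Bowtie2, SAMtools and Picard, without versions, and the builds mm10 and GRCm38. The authors deposited 4 LAD lists of start and end positions. How LADs were called, and whether signal from Dam alone was subtracted, is not given in the sources used here. The score column of the deposited lists is 0 on every line and was not used. Depth is unknown.

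Starts were made 1-based. Each autosome was analysed between its outermost LADs over all lists (2384.9 Mb on 19 autosomes), and chromosome X was not analysed here. Genes came from the RefSeq table of GRCm38.p6, leaving out 333 of 47038 autosomal entries out of coordinate order, whose coordinates belong to scaffolds. A gene was in a LAD when its midpoint was. Forkhead genes were taken by symbol (Fox, a letter and a number), and all 30 listed partner genes matched. Promoters came from RefSeq, with the most upstream start of each gene. The Foxq1 promoter was not used here. Genes named in the text are the cluster, the genes of the stretch and at LAD borders, and forkhead and partner genes by the state of each. Some genes counted in these sets are not reported here by name. The members and lists were chosen with earlier results of these data known.

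Pooled lists allow no test, and where replicates came from is not stated. Alternatives were other LAD lengths, gaps and borders, other gene placements and other flank lengths. Python 3.11.15, NumPy 2.4.6 and pandas 2.3.3 were used, and the counting was tested on simulated LADs.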

Additional observations from a re-analysis of the deposited data

Results flagged for a closer look

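The stretch with Foxq1, Foxf2 and Foxc1 differed between siRif1 and siControl embryos in opposite directions at the 8-cell and the 4-cell stage. The siRif1 minus siControl difference in the percent of bins in LADs was -100 points at the 8-cell stage, where the stretch was chosen by it, and 36 points at the 4-cell stage. For the count of the 3 forkhead genes in LADs, the difference was -3 at the 8-cell and 3 at the 4-cell stage. The 5 Mb after the stretch went the same way, with -42 points at the 8-cell and 24 points at the 4-cell stage. So did all autosomes (-1.81 and 10.6 points), by smaller amounts. Chromosome 13 had -3.24 and 16.2 points, but it holds the stretch and both flanks. Its 8-cell difference was -3.8 Mb, beside -2.5 Mb in the stretch and -2.1 Mb in the 5 Mb after it. The sign of chromosome 13 at that stage is thus not separate from theirs. The 5 Mb before the stretch did not go this way (6 and 12 points). In bin coverage the opposite signs were thus not particular to the stretch. By gene midpoint, the share of all protein-coding genes in LADs was lower in siRif1 than in siControl embryos at both stages. It was 24.2% against 26.3% at the 8-cell and 24% against 24.7% at the 4-cell stage. Each value compares 2 pooled lists, and the difference between the stages was not tested.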

How the results depend on the processing

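The differences in the stretch kept their direction under all 4 changes of the LADs. The stretch is a whole siControl 8-cell LAD of 2.5 Mb inside a siRif1 8-cell gap of 3.4 Mb. Changes of 100 to 300 kb could thus not turn the 8-cell difference, which chose the stretch, and are no check of it. The siRif1 minus siControl difference ran from -100 to -92 points at the 8-cell stage and from 32 to 36 points at the 4-cell stage. The count of forkhead cluster genes in LADs changed in 1 of 24 cases: with LADs extended by 100 kb, 1 lay in a siControl 4-cell LAD, and the count there was 0 otherwise. That gene was Foxc1. Foxc1 in the other lists, and Foxq1 and Foxf2 in all 4 lists, lay at least 271 kb from a border. Shifts of 100 kb could thus not change their state there. Stretch genes in siControl 4-cell LADs numbered 1 with LADs trimmed by 100 kb and 5 with LADs extended, against 2. The flank before the stretch was the least stable. Its siRif1 minus siControl difference at the 8-cell stage (6 points) was 8 points with LADs of at least 300 kb and 4 points with trimmed LADs, and at the 4-cell stage (12 points) it turned to -15 points in a 2-Mb flank. Its 8-cell minus 4-cell difference in siControl (-2 points) was -8 points with LADs of at least 300 kb, -4 points with trimmed LADs and -15 points in a 2-Mb flank, and turned to 4 points with extended LADs and 10 points in a 10-Mb flank. In siRif1 (-8 points) it was -12 points with trimmed LADs and turned to 5 points at 2 Mb and 3 points at 10 Mb. After the stretch, siRif1 minus siControl was -44 points with trimmed LADs and -10 points at 10 Mb at the 8-cell stage, and 14 points at 10 Mb at the 4-cell stage. There 8-cell minus 4-cell was 22 points at 10 Mb in siControl, and -34 points with trimmed LADs and -2 points at 10 Mb in siRif1. Forkhead genes that were LAD in only 1 of the 2 lists of a stage were also counted. With extended LADs they numbered 1 in siRif1 8-cell, 3 in siRif1 4-cell and 2 in siControl 4-cell embryos. With trimmed LADs they numbered 0 in siControl 4-cell embryos. Of the partner genes, 1 was LAD in siRif1 and not in siControl 4-cell embryos with extended LADs. With trimmed LADs, 1 was LAD in siControl 4-cell and not in siControl 8-cell embryos. The causes were not tested. No paired analysis was possible because each group has a single list pooled over its replicates, and no replicate could be left out for the same reason. Placing genes by their start used 2 of 3 forkhead starts in the table, and both ends of Foxq1 lay in a single bin.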
